A study of Carica papaya with 7 samples.

Results

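The genes described here were taken by a rule as nuclear and as clearly detected in papaya pulp, and they were brighter in ripe than in unripe pulp. They are 197 of the 22746 probe sets that remained on the array after the controls were left out. A probe set was taken when the larger of its stage means was above 8.24, the signal of the brightest Bacillus subtilis control probe set, and its ripe mean was more than 1.25 times its unripe mean. Control probe sets, the array's block of organelle probe sets and genes with organelle symbols were left out, as were 4 nuclear genes by name (GME, AT4G33670, AT3G15850 and AT3G53190). The members were thus chosen by their signals in both stages, and every ratio given for them is a description without a test.

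RNA from the pulp of 'Golden' papaya was measured on Affymetrix ATH1 GeneChips, whose probes were designed for Arabidopsis genes, so that each signal also depends on how well a papaya transcript fits an Arabidopsis probe. The unripe and the ripe group each have 3 columns, and each sample was pooled from 12 fruits picked around 150 days after anthesis, when the peel began to turn yellow, and freed of peel and seeds. The labels state that 1 sample of each stage came from an earlier harvest year than the other 2, and the study's methods place the second and the third replicate in the later year. In both stages replicate 2 was 1.19 times replicate 1 and replicate 3 was their mean, so that each stage holds 1 independent set of values and neither SD nor p-value can be given.

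Papaya is a climacteric fruit, in which a burst of ethylene and respiration accompanies the softening, colouring and sweetening of the pulp. Softening involves the disassembly of wall polysaccharides, while the wall also holds structural proteins. Among these are the extensins and other hydroxyproline-rich glycoproteins, which are made in the endoplasmic reticulum, glycosylated in the Golgi and secreted, and which can be cross-linked in the wall.

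Of the 22574 nuclear probe sets, 2307 (10.2%) were above the brightness limit in at least 1 stage. Among these bright probe sets 8.71% were higher in ripe pulp by the fold of the rule (201, the 4 left out by name included) and 9.15% were lower by the same fold (211), while 1895 lay between. The median log2 difference, ripe minus unripe, was 0.42 over the 197 members and -0.01 over all bright nuclear probe sets. The first of these values is set by the rule, and nothing is read from either share. As a background, the log2 difference of the 27 probe sets for Bacillus subtilis transcripts, to which no plant gene corresponds, ranged from -0.28 to 0.12. The bioB, bioC and bioD hybridization controls had a median log2 difference of -0.60 and the cre controls one of -0.05, and scaling to either adds the same amount to every log2 difference, so that no member, all being above 0, could turn sign. Of the 211 lower probe sets, 193 turned sign under scaling to bioB, bioC and bioD and 0 under scaling to cre.

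**Figure D1:**
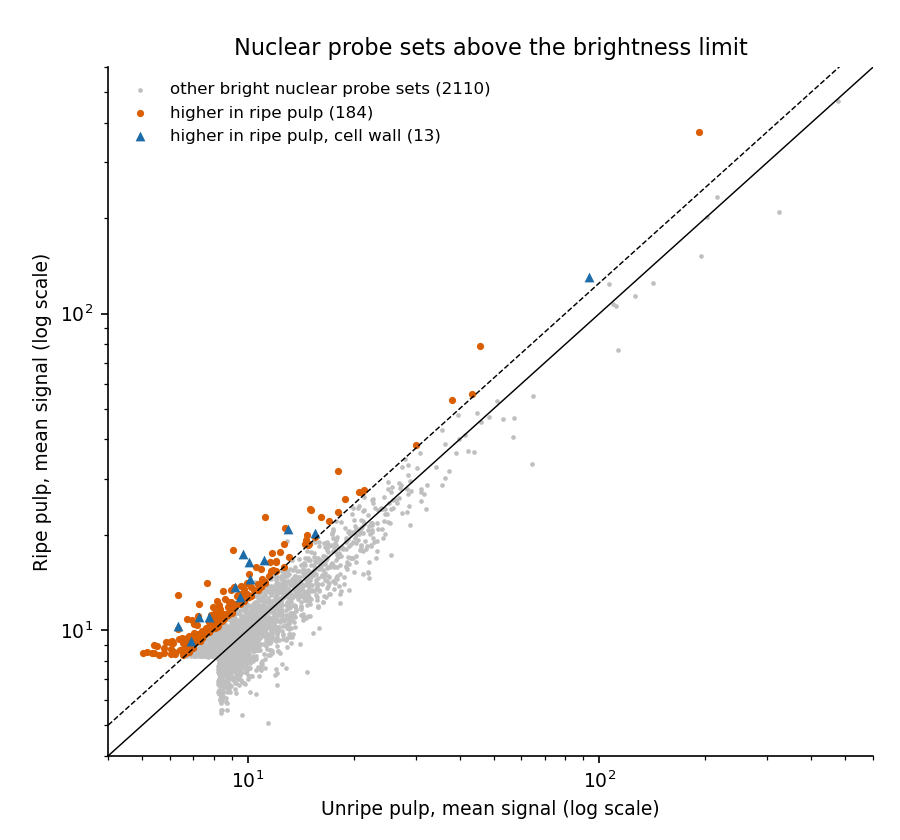
Mean signal in ripe pulp against mean signal in unripe pulp for the 2307 nuclear probe sets above the brightness limit, both axes logarithmic; the solid line marks equal signals and the dashed line a ratio of 1.25. The 197 members lie above the dashed line, the 13 cell wall genes are drawn as triangles, and most points sit close to the lower end of the scale.

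The members were mostly dim and their differences small. Ripe means ran from 8.33 to 374 with a median of 11.1, unripe means from 5.03 to 191 with a median of 8.09. The ratio had a median of 1.34, with quartiles of 1.29 and 1.44, and was over 1.5 in 33 members and over 2.0 in 2. In unripe pulp 94 members were also above the brightness limit, and the other 103 passed it in ripe pulp only. Those 103 were admitted through the stage in which they were high, so that their number supports nothing. Ripe signals above 16 were found in 37 members, which is 11.6% of the 319 bright nuclear probe sets with a stage mean above that level, and signals above 64 in 3.

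The columns of the stages did not overlap in any member, which follows from the rule, since the factor of 1.19 between columns is below the fold required. Among all bright nuclear probe sets 14.3% had every ripe column above every unripe column. In whole pulp, a larger share of a cell type and more RNA per cell cannot be told apart. Of the markers listed for peel epidermis, seed and vascular tissue, only FDH, an entry for epidermis, was matched to a probe set. That match rests on the symbol alone, and the probe set may belong to another gene. With stage means of 5.20 (unripe) and 4.67 (ripe) it was also below the brightness limit. No tissue marker can therefore be taken as measured. The part of other tissues in the differences was not tested.

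The platform annotation gave 1 gene symbol for 110 members, and the paper's tables named 2 more. Several symbols stood on 4 members, which are not named here, and 81 were unnamed here. Their nuclear origin could be judged only from the number of the probe set. A function was assigned to 69 of the 112 members with 1 symbol, in 9 groups formed after the values were known. The cell wall group was the largest of them with 13 genes, followed by kinases and signalling and by the secretory pathway with 10 genes each. Functions were assigned to members only, so the share of each group among all bright nuclear probe sets is not known. Nothing is therefore read from the sizes of the groups. Probe sets whose names end in _s_at or _x_at, which can match several transcripts, made up 6.09% of the members (12) and 3.25% of the bright nuclear probe sets (75).

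**Figure D2:**
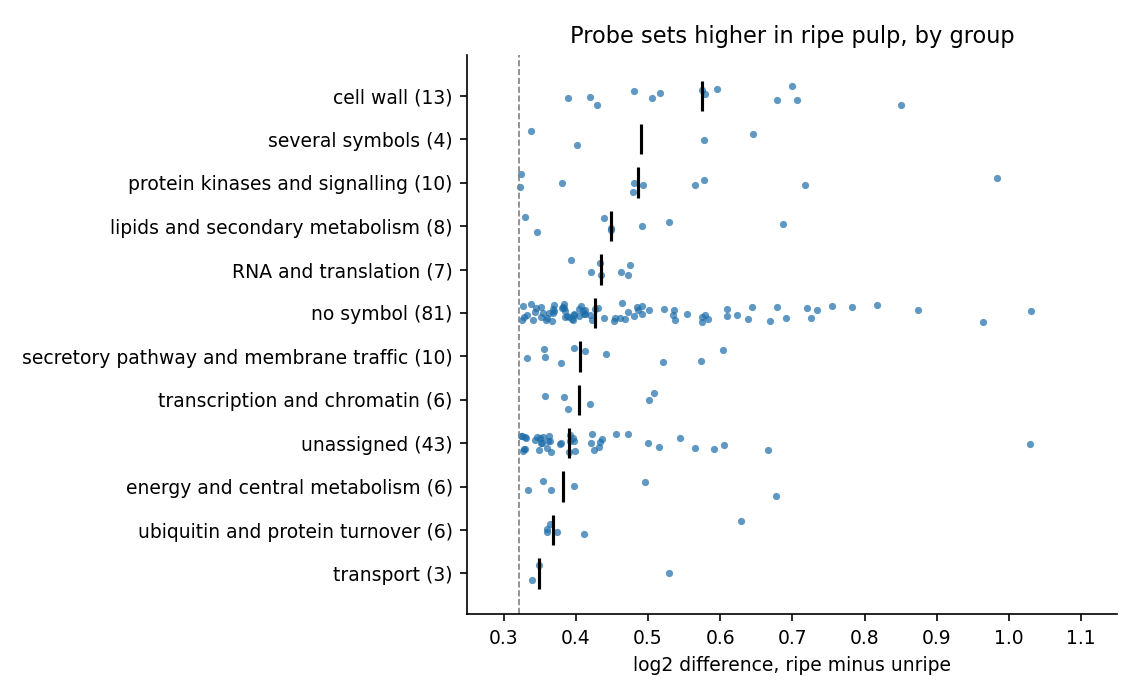
The log2 difference, ripe minus unripe, of each of the 197 members (points, spread vertically for visibility) by functional group, with the median of the group as a bar and the fold limit of the rule as a dashed line. The cell wall group has the highest median (0.58) and transport the lowest (0.35), and the ranges of the groups overlap.

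Cell wall genes were higher in ripe pulp by ratios from 1.31 to 1.80, with a median of 1.49, and 9 of the 13 were above the limit in both stages. Most were placed in this group by a family label. A total of 11 are annotated as genes for proline-rich proteins, with 5 extensin-like, 4 hydroxyproline-rich and 2 proline-rich family members. The median log2 difference of these 11 was 0.52. For the hydroxyproline-rich and proline-rich genes the label names only a family, and a structural role in the wall was not tested. AT3G06750, a hydroxyproline-rich glycoprotein gene, had signals of 8.82, 10.5 and 9.66 in the unripe columns and of 15.9, 18.9 and 17.4 in the ripe columns. Its ratio of 1.80 was the highest of the group.

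The 5 extensin-like genes had ratios from 1.43 to 1.63. AT5G19810 went from a mean of 10.1 in unripe to 16.4 in ripe pulp (ratio 1.63), and AT4G08380 from 13 to 20.9 (1.60). AT3G54580 and AT2G43150 both had a ratio of 1.49, with means of 11.1 and 16.6 for the former and of 9.21 and 13.7 for the latter. AT1G23720, at 10.1 and 14.5, had a ratio of 1.43. Extensin genes carry long repeats of the same peptide motif and resemble each other, so that a transcript of one could bind to the probes of another, and AT1G23720 was measured by a probe set of the _x_at type. Whether the 5 signals are independent of each other was not tested.

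The brightest named member was AT5G59170, a gene for a proline-rich protein. Its unripe columns held 85.5, 102 and 93.6 and its ripe columns 119, 142 and 131, a ratio of means of 1.40. Its signals were far above those of every other wall gene of the set, although signals of different probe sets are not levels of transcript. The hydroxyproline-rich glycoprotein gene AT5G57070 had means of 15.5 and 20.3, AT1G70985 means of 7.77 and 11, and AT1G23050 means of 6.88 and 9.27. The proline-rich AT1G12810 stood at 9.50 in unripe and at 12.7 in ripe pulp. Ratios in these 4 genes ran from 1.31 to 1.42.

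The other extensin genes of the array did not all lie on the same side. Of 20 extensin genes listed, 12 were found by symbol and 10 were bright, with a median log2 difference of 0.39. Apart from the 5 members, AT1G26240 (ratio 1.20) and AT5G06630 (1.13) were higher in ripe pulp by less than the rule asks. HRGP1 had a ratio of 0.95 and AT4G08410 one of 0.97, and both ratios were above 1 after scaling to bioB, bioC and bioD. HRGP1, AT4G08410 and AT5G06630 were measured by probe sets of the _x_at type, which can match several transcripts. Scaled to cre, HRGP1 had a log2 difference of -0.015 and AT4G08410 one of 0.006. AT3G28550 had means of 23.1 and 16.9 and a log2 difference of -0.45, which turned to 0.15 once the ripe columns were scaled to bioB, bioC and bioD. Scaled to cre, it stayed at -0.40. The list was drawn up after the members were seen and was built around 5 of them.

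**Figure D3:**
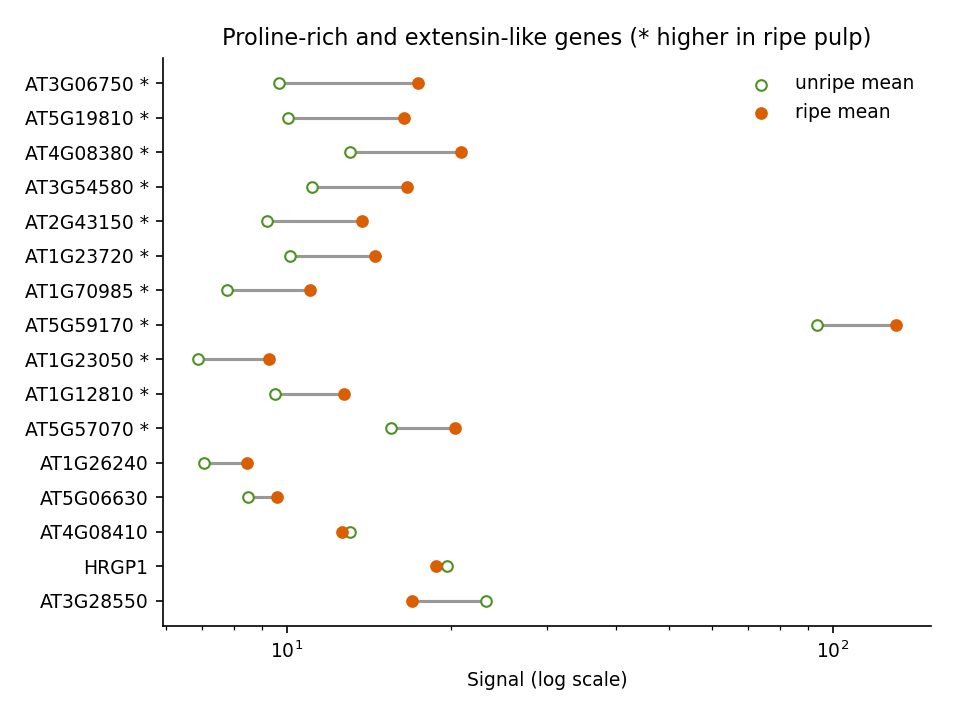
Mean signal (logarithmic axis) in unripe pulp (open circles) and ripe pulp (filled circles) of the 11 proline-rich and extensin-like members, marked with an asterisk, and of the 5 other bright extensin genes. The members have ratios from 1.31 to 1.80, whereas AT3G28550, HRGP1 and AT4G08410 have the ripe circle on the left, a position that was reversed under scaling to bioB, bioC and bioD. Under scaling to cre it was reversed for AT4G08410 only.

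Enzymes acting on wall polysaccharides were few among the 69 members with an assigned function. Since 81 members had no symbol, their number among all members is not known. AT5G01080, annotated as related to beta-galactosidases, which release galactose from wall side chains, had means of 6.33 and 10.3 (ratio 1.62). CSLD2, a cellulose synthase-like protein known in Arabidopsis from tip-growing cells, had means of 7.28 and 11 (1.51) and was the only bright probe set among the 8 matched as cellulose or callose synthases. Of the 37 probe sets matched by symbol as glycosyl hydrolases or galactosidases only BGLU42 was bright. Its ratio was 0.75, a log2 difference of -0.41 that turned to 0.19 under scaling to bioB, bioC and bioD but stayed at -0.36 under scaling to cre.

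Protein kinases and signalling genes had a median ratio of 1.40, and 7 of the 10 genes are annotated as kinases. AT1G06700, which encodes a kinase like tomato Pti1, had signals of 8.26, 9.83 and 9.05 in unripe and of 16.3, 19.4 and 17.9 in ripe pulp. Pti1 is known in tomato as a kinase that is phosphorylated by the resistance protein Pto. The ratio of AT1G06700, 1.98, was the highest of any member with an assigned function. A related gene, AT3G62220, had means of 8.97 and 13.4 (ratio 1.49). These were the only bright probe sets among 11 that were matched as kinases of that family.

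Further kinases had smaller ratios. The Raf-like kinase genes AT3G01490 and AT2G31010, named after animal kinases that head a phosphorylation cascade, had ratios of 1.48 (means of 12.7 and 18.7) and 1.30 (8.49 and 11.1). The authors assigned the probe set of AT2G31010 to AT2G31000 instead, so that its value may not belong to a Raf-like kinase. The kinase gene AT5G26150 followed with means of 7.04 and 9.82. AT1G80640 and AT2G18890 had ratios of 1.25 and were the members closest to the fold limit. AT5G18940 encodes a protein of the Mo25 family, which in animals is a scaffold that activates kinases, and its means were 12.7 and 21.0 (ratio 1.64). Genes of hormone signalling included SPY, the repressor of gibberellin responses, at 6.80 and 9.57, and WES1, a GH3 enzyme that joins auxin to amino acids, at 6.53 and 9.10. For WES1 the 3 other matched GH3 genes were all below the brightness limit in both stages, with ratios from 0.81 to 0.94. Of the ethylene signalling list 1 of 2 matched probe sets was bright, RTE1, which affects the ethylene receptor ETR1 in Arabidopsis, with a ratio of 1.14.

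**Figure D4:**
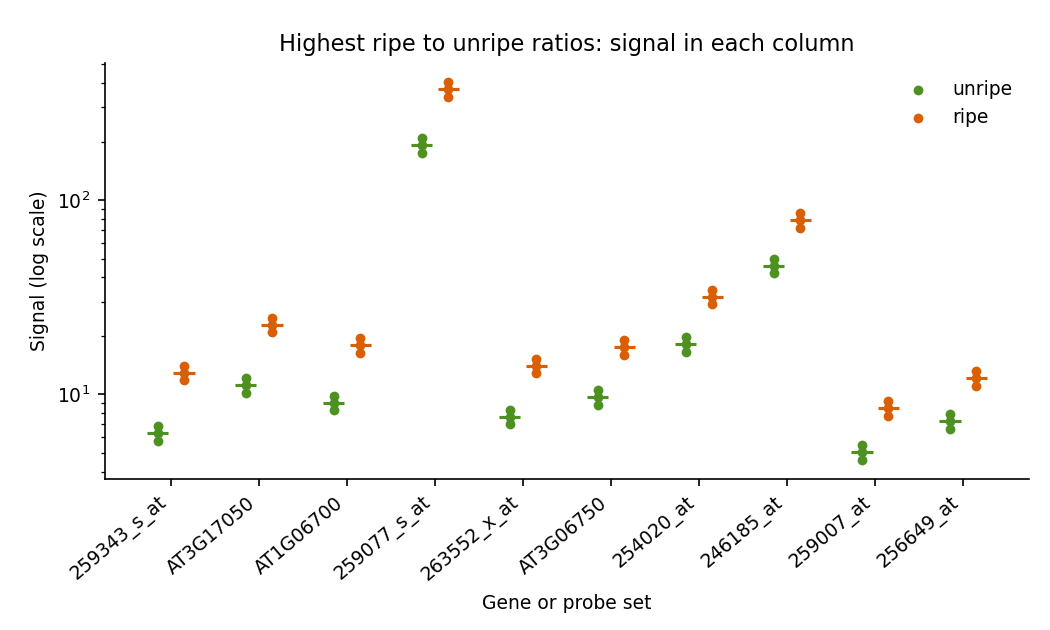
Signal in each of the 3 unripe and 3 ripe columns (points, logarithmic axis) and the stage mean (bars) for the 10 members with the highest ratio of ripe to unripe pulp; the 3 columns of a stage are proportional and are no replicate spread. In every gene or probe set shown all ripe points lie above all unripe points, which follows from the rule, and the ratios run from 1.66 to 2.04.

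Genes of the secretory pathway and membrane traffic had ratios from 1.26 to 1.52. AT2G15280, a reticulon gene of the tubular endoplasmic reticulum, had the highest ratio, with means of 8.16 and 12.4. AT1G09330 had means of 10.1 and 15 (ratio 1.49) and encodes ECHIDNA, which Arabidopsis needs at the trans-Golgi network to secrete wall polysaccharides. AT1G78720, related to the alpha subunit of the Sec61 channel through which new proteins enter the endoplasmic reticulum, had means of 10.9 and 15.6 (1.43). AT5G08390, related to the p80 subunit of the microtubule-severing protein katanin, was counted in the group although katanin acts on the cytoskeleton. It was the brightest gene counted there, with an unripe mean of 14.7 and a ratio of 1.36.

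Smaller differences were seen for AT2G21390, the alpha subunit of the COPI coat (6.55 and 8.72), and for the tetraspanin TET8 (6.71 and 8.84), a membrane protein found on secreted vesicles in Arabidopsis. PRA1.A1, a prenylated Rab acceptor, AT5G37310, an endomembrane protein of the TM9 family, and the DHHC acyltransferases AT5G04270 and AT4G00840, which attach lipids to proteins, completed the group with ratios from 1.26 to 1.30. The other bright genes of the related lists had ratios below the fold of the rule, by various margins. In the coatomer list AT5G05010 had a ratio of 1.09, and one probe set of AT1G79990 had means of 9.50 in both stages, while the other had a ratio of 0.73, a log2 difference of -0.46 that turned to 0.15 under scaling to bioB, bioC and bioD. In the Sec61 list AT5G60460 had a ratio of 0.82, a log2 difference of -0.28 that turned to 0.32 in the same way. Scaled to cre, the lower probe set of AT1G79990 stayed at -0.41 and AT5G60460 at -0.23. In the TM9 list AT4G12650 had a ratio of 1.13, with means of 12.6 and 14.2. In the DHHC list AT3G26935 came close to the fold limit, with means of 19.9 and 24.3 and a ratio of 1.22. AT3G60800 of that list had a ratio of 0.98.

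**Figure D5:**
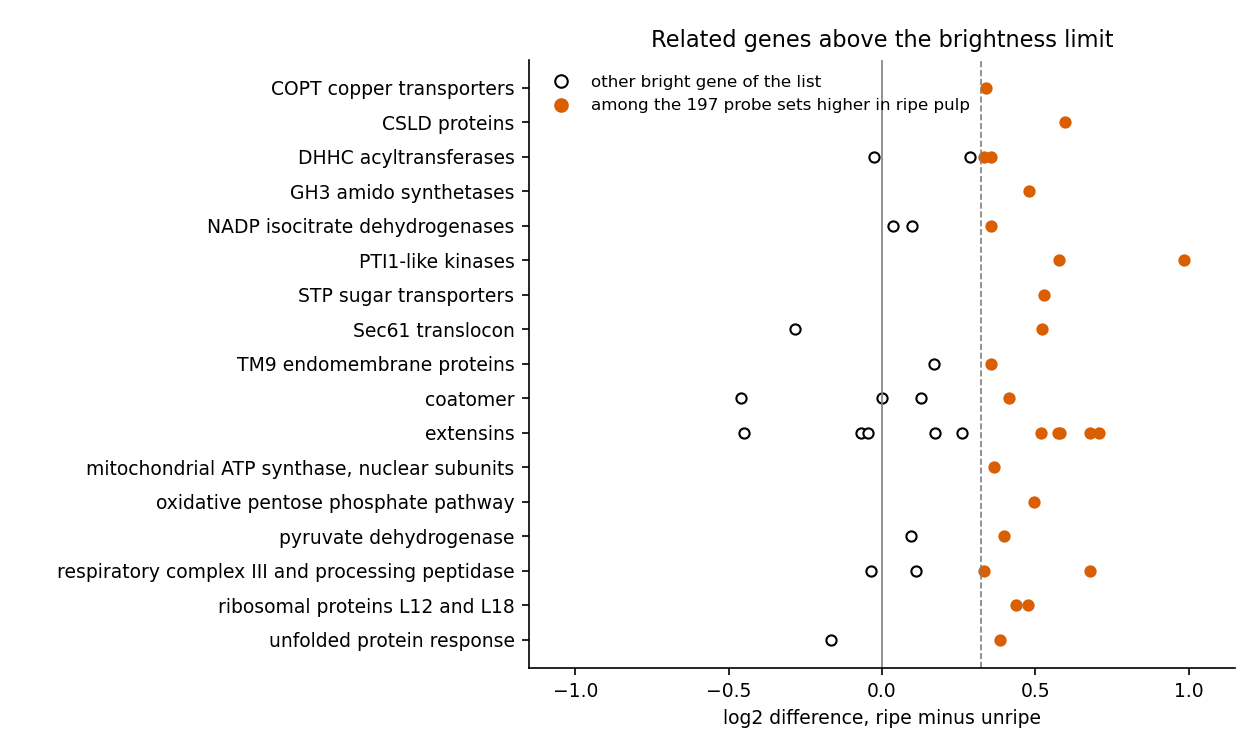
The log2 difference, ripe minus unripe, of bright probe sets in 17 lists of related genes, each built around at least 1 member; filled circles are members, open circles other genes of the list, the dashed line is the fold limit. Open circles lie between -0.46 and 0.29, those below 0 turned positive under scaling to bioB, bioC and bioD, and in 8 of the lists no gene other than members was bright. Under scaling to cre only AT4G08410, AT5G40810 and AT3G60800 of those below 0 turned positive.

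Energy and central metabolism held 6 genes, none of them above the brightness limit in unripe pulp. The highest ratio was that of AT3G27240, which encodes cytochrome c1 of respiratory complex III, at 6.31 in unripe and 10.1 in ripe pulp (1.60). The second gene for that protein, AT5G40810, had means of 9.86 and 9.62, a ratio of 0.97 and a sign that turned when scaled to either set of hybridization controls. MPPBETA, the peptidase subunit that in plants belongs to complex III and removes import signals from mitochondrial proteins, had means of 7.32 and 9.22. AT5G47030, the delta subunit of mitochondrial ATP synthase, had means of 7.68 and 9.89.

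The remaining genes of that group supply reducing power or acetyl-CoA. AT1G64190, a 6-phosphogluconate dehydrogenase of the oxidative pentose phosphate pathway, had means of 8.11 and 11.4 (ratio 1.41). The other matched genes of that pathway were below the brightness limit in both stages, with ratios from 0.82 to 1.08. cICDH, the cytosolic isocitrate dehydrogenase, which makes NADPH and 2-oxoglutarate, had means of 7.42 and 9.49, and the 2 other isocitrate dehydrogenase genes of this type were bright with ratios of 1.07 (ICDH) and 1.03 (AT5G14590). AT2G34590, the E1 beta subunit of the plastid pyruvate dehydrogenase, which feeds fatty acid synthesis, went with means of 7.36 and 9.70, and MAB1, the mitochondrial E1 beta subunit, with means of 30.4 and 32.4. The plastid gene had the higher ratio (1.32 against 1.07) on the lower signals.

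Lipid and secondary metabolism contributed 8 genes with a median ratio of 1.36. AT5G42830, an acyltransferase of the HXXXD type, a family that esterifies many plant metabolites, had the highest ratio (1.61, means of 6.73 and 10.8). It was followed by AT5G06060, a short-chain dehydrogenase, at 6.06 and 8.74. AER, an alkenal reductase that detoxifies reactive products of lipid oxidation, had means of 8.32 and 11.7. The cytochrome P450 AT2G12190 had means of 7.74 and 10.6 and the aldo-keto reductase AT1G06690 means of 12.0 and 16.4. Among genes for lipids, AT5G42000 encodes an ORMDL protein, which in yeast restrains the first step of sphingolipid synthesis, and had means of 6.21 and 8.42. SGT, which adds glucose to sterols, was the brightest of these at 10.9 and 13.7, a ratio of 1.26, and LpxB, like the bacterial enzyme of lipid A synthesis, had means of 8.41 and 10.7.

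Genes for RNA and translation had ratios from 1.31 to 1.39, the narrowest span of the 9 functional groups. Their means lay between 6.04 and 9.31 in unripe pulp and between 8.38 and 12.8 in ripe pulp. A pair of ribosomal protein genes was among them, AT5G60670 of the L12 type (8.81 and 12.3) and AT2G47570 of the L18 type (8.09 and 10.9). Other genes for the same proteins, AT2G37190, AT3G53430 and AT5G27850, were below the brightness limit in both stages and had ratios from 0.81 to 0.95. AT3G56330, a tRNA methyltransferase, had means of 9.31 and 12.8, and AT2G25910, which combines an exonuclease and an RNA-binding domain, means of 6.04 and 8.38. FY, a factor of mRNA 3' end processing that also acts in the control of flowering in Arabidopsis, had means of 6.69 and 8.95.

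Transcription and chromatin genes were 6, of which 1 was above the limit in both stages. That gene, AT1G20670, encodes a bromodomain protein, a type that reads acetylated histones, and had means of 9.97 and 14.1 (ratio 1.42). GYRB3, like the B subunit of DNA gyrase, had the same ratio on lower means of 7.86 and 11.2. BZIP60, the factor that switches on the genes of the unfolded protein response of the endoplasmic reticulum, had means of 8.09 and 10.6 (1.30). BZIP17, a factor of the same response, had a ratio of 0.89, a log2 difference of -0.17 that turned to 0.44 under scaling to bioB, bioC and bioD. Scaled to cre, BZIP17 stayed at -0.12. The AP2 family factor AT2G41710 (6.52 and 8.54), the RCC1 family gene AT1G19880 (6.96 and 9.31) and GIS, a zinc finger factor of trichome formation in Arabidopsis (6.52 and 8.35), completed the group.

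Ubiquitin and protein turnover genes were 6, with a median ratio of 1.29. AT5G25270, which encodes a ubiquitin-like protein, had the highest ratio (1.55, means of 6.95 and 10.8). The U-box ubiquitin ligases PUB26 and PUB19 had unripe means of 9.23 and 7.80. Both ligases mark proteins with ubiquitin, and their ratios were 1.30 and 1.28. Among 23 probe sets matched as ubiquitin conjugation genes 5 were bright, and the conjugating enzymes UBC20, UBC30 and UBC28 had ratios of 0.95, 0.86 and 0.74, all with a log2 difference below 0 that turned positive under scaling to bioB, bioC and bioD. Scaled to cre, these enzymes stayed below 0, at -0.02, -0.17 and -0.38. The ubiquitin family gene AT4G03370, the UBX domain gene AT3G21660 and the F-box gene AT3G42770 had ratios from 1.28 to 1.33.

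Transport was represented by 3 genes. AT5G26250 encodes STP8, a proton-coupled transporter of the family that takes up hexoses, and its means were 7.19 and 10.4 (ratio 1.44). The 3 other genes of that family that were matched, AT5G61520, AT3G19940 and AT1G34580, were all below the brightness limit. Their ratios were 0.71, 0.79 and 0.95, each lower in ripe pulp. AT5G59030, a copper transporter, had means of 9.01 and 11.4, and AT2G41705, of a family that exports fluoride, means of 7.74 and 9.86.

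Members of no assigned function held several of the highest values. AT3G17050 had signals of 10.2, 12.1 and 11.2 in unripe and of 20.8, 24.7 and 22.8 in ripe pulp, the second highest ratio of all (2.04). AT4G01870 followed among genes with a symbol, at 15.1 and 23.9 (1.59). AT2G20920 was the brightest of these genes, with 19.5, 23.2 and 21.3 in the unripe and 25.4, 30.2 and 27.8 in the ripe columns, and its ratio was 1.30. AT2G07691 lies in the stretch of mitochondrial DNA that is inserted into a nuclear chromosome of Arabidopsis and was measured by an _s_at probe set, at 8.17 and 10.2. A nuclear and a mitochondrial origin of its signal cannot be told apart.

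Probe sets without a symbol made up 81 of the 197 and included the brightest one. Probe set 259077_s_at had 175, 208 and 191 in the unripe and 341, 406 and 374 in the ripe columns, a ratio of 1.95. The highest ratio of all, 2.04, belonged to 259343_s_at, with 5.77, 6.87 and 6.32 in unripe and 11.8, 14 and 12.9 in ripe pulp. Both are of the type that can match several transcripts. Next in brightness, after AT5G59170, was 246185_at, with 41.9, 49.8 and 45.8 in unripe and 72.0, 85.7 and 78.9 in ripe pulp.

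The other unnamed probe sets with high ratios were dimmer. Probe set 254020_at had 16.5, 19.6 and 18 in the unripe and 29.0, 34.6 and 31.8 in the ripe columns (ratio 1.76), and 263552_x_at had 6.99, 8.32 and 7.66 against 12.8, 15.3 and 14 (1.83). Probe set 256649_at had 6.63, 7.89 and 7.26 in unripe and 11, 13.1 and 12.1 in ripe pulp, and 259007_at had 4.59, 5.46 and 5.03 against 7.75, 9.22 and 8.48. Except for 254020_at, these probe sets passed the limit in ripe pulp only. Of the 10 brightest members, 8 had no symbol, and 5 of these are not yet described.

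Their ratios were lower, from 1.28 to 1.40. Probe set 252713_at had 39.6, 47.1 and 43.4 in unripe and 50.8, 60.4 and 55.6 in ripe pulp, and 251590_at had 34.8, 41.4 and 38.1 against 48.5, 57.7 and 53.1. Probe set 249679_at had 27.5, 32.7 and 30.1 in unripe and 35.1, 41.7 and 38.4 in ripe pulp. In each the lowest ripe column was above the highest unripe column, which follows from the rule. Probe set 263705_at had 19.3, 23.0 and 21.1 in unripe and 24.9, 29.7 and 27.3 in ripe pulp, and 264122_at had 18.9, 22.5 and 20.7 against 24.9, 29.6 and 27.3.

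A second probe set was present for 3 member genes and had not been used to choose them. That of GYRB3 had means of 2.89 and 3.19 (ratio 1.11), that of AT2G31010 means of 3.66 and 3.74 (1.02), and that of AT1G06750 means of 2.95 and 3.26 (1.11). All 3 were higher in ripe pulp by less than the fold of the rule and lay far below the brightness limit.

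Of 44 lists of gene families and pathways, 36 were matched by symbol to at least 1 probe set and 16 to a bright one. The other lists, ethylene synthesis and abscisic acid among them, matched no symbol and were not examined. Of the 31 bright probe sets in them 4 were members (12.9%, beside 8.71% of all bright nuclear probe sets), namely PUB26, PUB19, BZIP60 and CSLD2. Another 4, VPS60.2, LEA4-5, UBC28 and BGLU42, were lower in ripe pulp by the fold, with log2 differences that all turned positive under scaling to bioB, bioC and bioD. Scaled to cre, they stayed below 0, at -0.49, -0.41, -0.38 and -0.36. The bright sugar transporters SWEET1, SWEET10, SWEET11 and TMT3 had ratios from 0.90 to 1.04. The families hold too few bright probe sets for any of them to be described as a group. Some were matched by symbol alone and may not belong to their list, such as CHC1 under vesicle traffic and CPNIFS under chaperones.

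The limits of the rule cut through a dense range of values. At the fold limit the closest genes inside were AT2G18890, AT1G80640 and AT5G56520, with ratios of 1.251, 1.252 and 1.252, and the closest outside were 264600_at, 248997_at and AT5G45350, with 1.249, 1.248 and 1.248. At the brightness limit the dimmest members were 267402_at, GIS and AT2G25910, with ripe means of 8.33, 8.35 and 8.38. Those just below were AT5G65650, 247304_at and AT3G25260, with 8.23, 8.22 and 8.21.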

How the data were processed

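The authors deposited linear intensities, made with RMA from ATH1 arrays, with 1 value per probe set and column. The authors' methods describe filtering by a genomic DNA mask, but the table holds 22810 probe sets, more than that mask retained, and whether its intensities include the mask or the genomic DNA normalization is not stated. No value of the genomic DNA hybridization was used here, and the planned comparison with it was not run. Stage means, their ratio and its log2 were computed from the 6 pulp columns, without a test, because the columns of a stage are proportional within 0.0011 in the signal. Arrays give no depth, and 1 set of values per stage limits the precision. Genes were named from the platform annotation and, for 2, from the paper. The members and lists were chosen with earlier results of these data known. The functional groups and the 17 lists of related genes were formed after the members' values were seen. Entries judged unsuitable were removed from the 44 families at the same time, though doubtful matches by symbol remained. Values in all columns are given for the 10 members of highest ratio and the 10 of highest ripe mean, and stage means for up to 6 genes of highest ratio per functional group, for related genes and for those next to each limit; a few further genes were added after their values were seen. Alternatives were another mean, scaling, offset, limits and leaving out each column. The selection step was tested on simulated data, signals raised by known folds without noise. Python 3.11.15, numpy 2.4.6, pandas 2.3.3 and matplotlib 3.10.9 were used.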

Additional observations from a re-analysis of the deposited data

How the results depend on the processing

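The number of probe sets selected was 197 with means of log2 signals, 202 after quantile normalization (193 shared) and 196 after median centring. It was 5642 when the ripe columns were scaled to bioB, bioC and bioD, which adds 0.60 to every log2 difference, and 314 when scaled to cre. With 16 added to each signal 14 remained, of which 3 were proline-rich or extensin-like. Leaving out single columns gave 120 to 338 probe sets, by construction, as columns differ by the factor 1.19: 134 without unripe replicate 1, 311 without unripe replicate 2, 338 without ripe replicate 1, 120 without ripe replicate 2 and 197 without replicate 3 of either stage. Those settings kept all 11 proline-rich and extensin-like genes. A stage mean above 16 left 37 members (6 proline-rich or extensin-like), both stage means above the limit 94, and a ratio above 1.5 left 33 (3 proline-rich or extensin-like). Without probe sets of the _s_at and _x_at types 185 remained. No paired analysis was possible because the columns of a stage are proportional, and the replicate block, the mean log2 ratio of columns with the same number, gave 197. The direction of the 112 named members stayed the same, which follows largely from their selection by ratio and is no sign of stability. Settings that need the genomic DNA array were not run. Dim signals and 1 set of values per stage limit every difference.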
